A study of Homo sapiens with 24 samples.

Results

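A set of 32 genes for amino acid and glucose metabolism in the liver was followed in PLC/PRF/5 and SNU-449, both human hepatocellular carcinoma (HCC) cell lines. The set was defined by name and covers the urea cycle, breakdown of tyrosine, tryptophan, histidine and serine, handling of glutamine, glutamate and γ-aminobutyrate (GABA), the methionine cycle with transsulfuration, gluconeogenesis, and glycogen, pyruvate and fructose metabolism. All 32 genes had a probe on the array, 36 probes in all, found by transcript accession. A gene was retained when its probe was called well above background by the scanner software on all 3 arrays of any group. This left 23 genes, of which 13 were above background on all 24 arrays, out of 18054 genes tested over both lines.

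Serum-starved cells of each line were either left untreated (control) or received TGFβ1 at 1 ng/mL, galunisertib (LY2157299, an inhibitor of the TGFβ type I receptor kinase) at 10 µM, or both agents, for 16 h. Each of the 8 groups held 3 arrays from independent culture experiments, and total RNA was labelled with a single dye. Each line is 1 established culture model grown without the other cells of a liver. A level below is the log2 of the probe signal over the 75th percentile of its array, so that a level of 0 equals that percentile, and levels were never set against those of another probe. Signals below -4.13 on this scale were raised to that floor.

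Hepatocytes detoxify ammonia by making urea, a cycle that starts in mitochondria with carbamoyl phosphate and ends with arginase in the cytosol. They also degrade most of the aromatic and sulfur amino acids and release glucose to the blood, for which glucose-6-phosphatase catalyses the last step. Much of this programme is switched on late in hepatocyte maturation, and HCC cells retain it to very different degrees.

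The promoter of G6PC1, which encodes the catalytic subunit of glucose-6-phosphatase, is shown because this gene differed most between the lines and responded to both agents in PLC/PRF/5. The promoter of MAT1A, the methionine adenosyltransferase of mature liver, is shown because this gene too was not above background in untreated SNU-449. Each sequence gives the 250 bases before the RefSeq start on the strand of the gene (assembly GRCh38.p14). Capitals mark matches to the motifs searched, the HNF1 half-site GTTAAT at 226 bases before the start of G6PC1 and the core promoter element TATAAA at 29 bases before it. The MAT1A window held no match.
G6PC1, chr17:42900549-42900798, plus strand: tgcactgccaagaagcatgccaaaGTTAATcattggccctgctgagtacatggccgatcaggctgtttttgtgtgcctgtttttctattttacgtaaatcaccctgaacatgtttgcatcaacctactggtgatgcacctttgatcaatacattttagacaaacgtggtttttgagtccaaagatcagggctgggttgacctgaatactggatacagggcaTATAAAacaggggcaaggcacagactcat
MAT1A, chr10:80289659-80289908, minus strand: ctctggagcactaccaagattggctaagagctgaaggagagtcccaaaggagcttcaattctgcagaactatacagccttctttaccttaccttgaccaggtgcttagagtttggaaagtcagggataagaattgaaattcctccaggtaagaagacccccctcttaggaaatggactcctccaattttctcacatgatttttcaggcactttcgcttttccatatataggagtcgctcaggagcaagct

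Promoter sequences matched 26 of the 32 genes, some with several start sites, 39 promoters in all. On both strands of the 250 bases, GTTAAT was present in 2 of the 39 promoters (ABAT and G6PC1), compared with 6.23% of 35116 promoters of the reference. Each gene named here and below had the motif in 1 promoter, so that its counts are likewise out of 39 promoters. TATAAA was found for 5 genes (ARG1, BHMT, G6PC1, OTC and TDO2, 10.7% of all promoters). A C/EBP motif, TTGCNNAA, was found for CBS and HAL (9.05% of all promoters). The SMAD half-site CAGACA was found for ABAT, CPS1, FBP1 and HAL (13.6% of all promoters). No promoter of the set held TGTTTAC (FOXA, 2.98%), AAAGTCCA (HNF4, 0.98%) or TGACGTCA (CRE, 1.65%). These are matches of letters, some motifs can overlap, and no binding was measured.

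The labels of the lines were checked against marker genes. All 13 hepatocyte markers and all 6 markers of hepatoma and epithelium were higher in untreated PLC/PRF/5, while 7 of 8 mesenchymal markers were higher in untreated SNU-449 and FN1 was higher in PLC/PRF/5. The summed linear level of the hepatocyte markers (in multiples of the 75th percentile) was 730 to 1002 on the control arrays of PLC/PRF/5 and 7.94 to 8.52 on those of SNU-449, where ALB, APOB, HNF4A and TF were not well above background. Summed mesenchymal markers ran from 167 to 196 and from 632 to 717, respectively, with COL1A1 and SNAI2 not above background in PLC/PRF/5. The cholangiocyte markers KRT7, KRT19 and SOX9, also epithelial, went against the other epithelial lists, with 0 of 3 higher and 2 lower in PLC/PRF/5. Their sums ran from 8.31 to 11.1 in PLC/PRF/5 and from 255 to 336 in SNU-449, where KRT19 was not above background. Of 3 leukocyte markers 1 was tested and of 3 endothelial markers 2, and 0 were called in either list. Whether the genes described here follow the same difference in cell state was not tested. TGFβ raised SKIL, a feedback gene of the pathway, in PLC/PRF/5 (difference of levels 1.63 ± 0.11, SE, adjusted p = 8.13e-06) and PMEPA1, another target of the pathway, in SNU-449 (1.39 ± 0.37, adjusted p = 0.0389), and galunisertib added to TGFβ lowered them by 2.06 and by 2.12 on the log2 scale. Between 43.9% and 51.6% of probe spots were well above background per array, and no spot was saturated. Arrays that had received TGFβ lay in the other row of each slide than those without it, in all groups, so that slide row and TGFβ cannot be told apart. Each slide column likewise held 1 line, with or without galunisertib, so that column cannot be told apart from line or from galunisertib.

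For the untreated lines the question was which parts of this metabolic programme each line retained. G6PC1, HGD, PCK1, ABAT and MAT1A were much higher in PLC/PRF/5, from at least 7.70-fold for MAT1A to at least 1353-fold for G6PC1. Of the 23 genes tested, 16 were higher and 3 were lower in PLC/PRF/5 at an adjusted p under 0.05 (limma), while 34.1% of all genes were higher and 34.4% lower. With a fold above 2 and an unadjusted P under 0.001, 13 of the 23 were called against 34.4% of all genes. A gene present in a single line could pass the background filter through that line alone, so these counts describe the genes that passed and not the whole set. The median difference was 1.63 over the 23 genes and 0.07 over all genes.

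**Figure D1:**
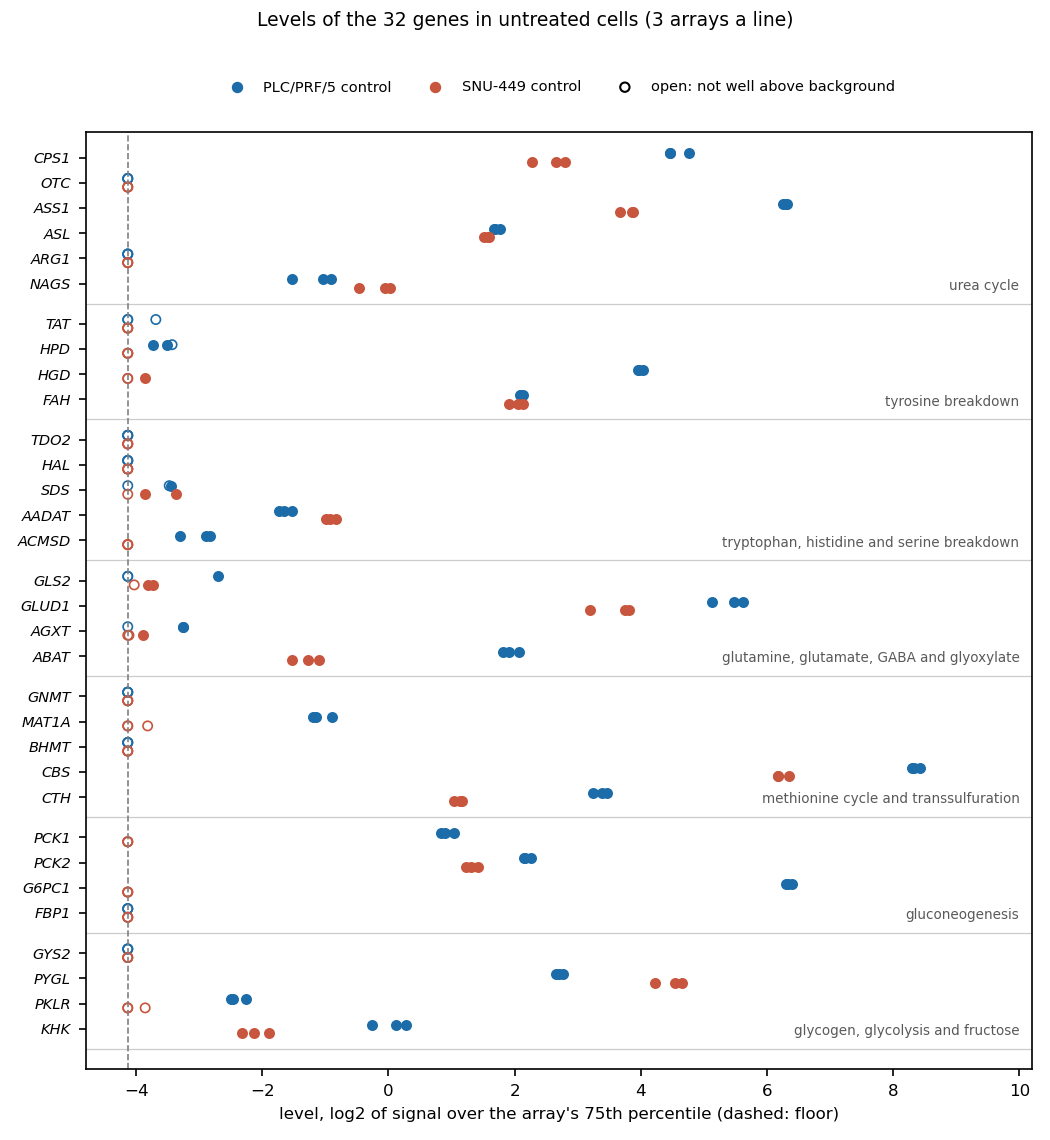
Levels (log2 of signal over the array's 75th percentile) of the 32 genes on the 3 control arrays of PLC/PRF/5 (blue) and SNU-449 (red), grouped by pathway. Open points were not well above background and the dashed line is the floor. G6PC1, PCK1 and ACMSD sit at the floor on every SNU-449 array, and HGD rises just above it on 1, whereas FAH and ASL have similar levels in both lines.

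In the urea cycle, ASS1, which joins citrulline and aspartate, had levels of 6.25, 6.30 and 6.32 in PLC/PRF/5 and of 3.67, 3.86 and 3.87 in SNU-449. CPS1, the mitochondrial enzyme that commits ammonia to the cycle, had 4.47, 4.76 and 4.47 against 2.65, 2.81 and 2.27. For both genes every PLC/PRF/5 array was above every SNU-449 array. Such lack of overlap, here and below, describes genes picked for naming and is no further test. Its share over all genes was not counted. The differences were 2.49 ± 0.14 (SE, 3 arrays per line, 5.61-fold, adjusted p = 5.37e-12) for ASS1 and 1.99 ± 0.52 (3.96-fold, adjusted p = 0.00237) for CPS1. In these bulk samples fewer cells carrying a transcript and less of it per cell cannot be told apart, and 3 arrays per group limit the precision. The large error of CPS1 comes with scattered levels in treated groups, which share the estimate of the spread. Both ASS1 probes differed in the same direction, and ASS1 has processed pseudogenes that a probe may also detect. NAGS, which makes the activator of CPS1, ran the other way, with levels of -0.91, -1.03 and -1.53 in PLC/PRF/5 and of -0.47, 0.03 and -0.06 in SNU-449 (difference -0.99 ± 0.17, adjusted p = 2.92e-05). ASL, which splits argininosuccinate, did not pass the test (0.15, 95% interval -0.04 to 0.34, adjusted p = 0.152). OTC and ARG1, the steps after CPS1 and at the end of the cycle, were not retained. ARG1 was above background on 0 of the 24 arrays and OTC on 1.

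Tyrosine is degraded in turn by TAT, HPD, HGD and FAH. HGD, homogentisate dioxygenase, had levels of 4.03, 3.96 and 3.96 in PLC/PRF/5 and of -4.13, -4.13 and -3.86 in SNU-449, where 1 of 3 arrays was above background. It was higher in PLC/PRF/5 (8.03 ± 0.07, adjusted p = 6.72e-25), by an amount that the floor sets on 2 of the 3 SNU-449 arrays. Arrays at the floor add no spread to the shared estimate. The SE and adjusted p therefore also depend on the floor, here and for other genes floored in SNU-449. FAH, the last enzyme of the path, had levels of 2.08, 2.09 and 2.13 against 1.91, 2.06 and 2.13. The ranges of FAH overlapped (0.07, 95% interval -0.11 to 0.25, adjusted p = 0.506). HPD, the step before HGD, lay near the floor in PLC/PRF/5 (-3.43 to -3.73, above background on 2 of 3 arrays) and at it in SNU-449, at least 1.41-fold higher in the former (adjusted p = 0.000257). TAT, which starts the path, was not above background on any control array of either line (0.15, adjusted p = 0.431).

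Among enzymes of tryptophan, histidine and serine breakdown, TDO2 and HAL, the first steps for tryptophan and histidine, were above background on none of the 24 arrays, and SDS, serine dehydratase, on 11 without reaching all 3 of a group. AADAT, an aminotransferase acting on kynurenine, was higher in SNU-449 (-0.99, -0.83 and -0.93, against -1.66, -1.73 and -1.54 in PLC/PRF/5), a difference of -0.73 ± 0.16 (adjusted p = 0.000603). ACMSD, which diverts a tryptophan intermediate from NAD synthesis, was above background only in PLC/PRF/5 (-2.83, -3.31 and -2.89) and at least 2.07-fold higher there (adjusted p = 3.45e-08).

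GLUD1, the mitochondrial glutamate dehydrogenase, had levels of 5.47, 5.13 and 5.62 in PLC/PRF/5 and of 3.82, 3.20 and 3.74 in SNU-449 (1.82 ± 0.15, 3.54-fold, adjusted p = 1.63e-09). ABAT, which degrades GABA, had 1.81, 1.91 and 2.07 against -1.52, -1.11 and -1.27 (3.23 ± 0.15, 9.41-fold, adjusted p = 2.16e-13). Neither gene overlapped between the lines. GLUD1 has a near-identical retrocopy, GLUD2, whose transcripts its probe may share. AGXT, which removes glyoxylate, lay close to the floor and overlapped between the lines, and its call (0.50 ± 0.19, adjusted p = 0.0246) was lost without replicate 1 or 2 of either control group. GLS2, the liver glutaminase, was above background on 1 control array of PLC/PRF/5 and on 2 of SNU-449 (0.20, 95% interval -0.37 to 0.77, adjusted p = 0.521).

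All 3 retained genes of methionine metabolism were higher in PLC/PRF/5. MAT1A had levels of -1.20, -1.15 and -0.90, and was above background on none of the 3 SNU-449 arrays. Its signal in PLC/PRF/5 exceeded that in SNU-449 at least 7.70-fold (2.95 ± 0.11, adjusted p = 1.04e-14). An "at least" fold sets the measured group against the weakest signal that was above background on each array, or against the dim signal, raised to the floor where it lay under it, where that was higher. CBS and CTH, the enzymes of transsulfuration that lead from homocysteine to cysteine, were 4.34-fold (2.12 ± 0.27, adjusted p = 6.91e-07) and 4.76-fold higher (2.25 ± 0.09, adjusted p = 2.09e-14). CTH levels were 3.25, 3.38 and 3.47 against 1.14, 1.03 and 1.17. The signal of the CBS probe may include the duplicate locus CBSL. GNMT and BHMT, which consume S-adenosylmethionine and remethylate homocysteine, were above background on 0 arrays.

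Of the gluconeogenic genes, G6PC1 showed the widest gap of all genes of the set that were tested. The gap of PCK1 was narrower than that of HGD. G6PC1 had levels of 6.31, 6.33 and 6.40 on the control arrays of PLC/PRF/5 and was at the floor on all 12 arrays of SNU-449, at least 1353-fold lower (adjusted p = 1.39e-25 for the untreated lines). PCK1, the cytosolic phosphoenolpyruvate carboxykinase, had levels of 1.04, 0.84 and 0.89 in PLC/PRF/5. It was not above background on any SNU-449 array, at least 31.6-fold lower in the controls (adjusted p = 1.9e-15). PCK2, its mitochondrial counterpart, was measured in both lines and was 1.83-fold higher in PLC/PRF/5 (2.26, 2.16 and 2.15 against 1.42, 1.23 and 1.30, adjusted p = 8.13e-07). FBP1, the fructose-1,6-bisphosphatase between these enzymes, was above background on none of the 24 arrays, those of PLC/PRF/5 included. It had 1 probe, its isozyme FBP2 was not among the genes tested, and no enzyme was measured. Whether this step was missing was thus not tested.

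Glycogen phosphorylase of liver, PYGL, was higher in SNU-449 (4.54, 4.23 and 4.65, against 2.65, 2.71 and 2.77), a difference of -1.76 ± 0.14 (3.39-fold, adjusted p = 1.36e-09). KHK, which phosphorylates fructose, had levels of 0.11, -0.27 and 0.27 in PLC/PRF/5 and of -1.89, -2.32 and -2.13 in SNU-449 (4.45-fold, adjusted p = 1.71e-09). PKLR, the pyruvate kinase of liver and red cells, was above background only in the PLC/PRF/5 controls and at least 2.95-fold higher there (adjusted p = 1.01e-06). GYS2, the liver glycogen synthase, was above background on 3 of 24 arrays and was not retained.

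Many of these enzymes have a partner that acts in other tissues or another compartment. Of 13 such partners 11 were tested between the untreated lines, 4 were higher and 5 lower in PLC/PRF/5, and their median difference was -0.03. PCK2 is counted among both the partners and the 32 genes, here and below. CAD, the cytosolic carbamoyl phosphate synthase of pyrimidine synthesis, differed by -1.16, PKM by -0.61 and G6PC3 by -0.78, while CPS1, PKLR and G6PC1 were higher in PLC/PRF/5. MAT2A was higher in PLC/PRF/5, as was MAT1A, by 0.66. HK2, set against KHK, was above background only in PLC/PRF/5 (at least 114-fold higher). Of 80 other genes of the same pathways 70 were tested, and 36 were higher and 22 lower in PLC/PRF/5 (median difference 0.38). Large differences were found for PRODH2 (at least 175-fold higher) and the glucose transporter SLC2A2 (4.08). PRODH, the proline dehydrogenase, differed by -2.84, HAAO, which makes quinolinate, by -1.87, and HOGA1, an enzyme of hydroxyproline breakdown, by -1.82.

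**Figure D2:**
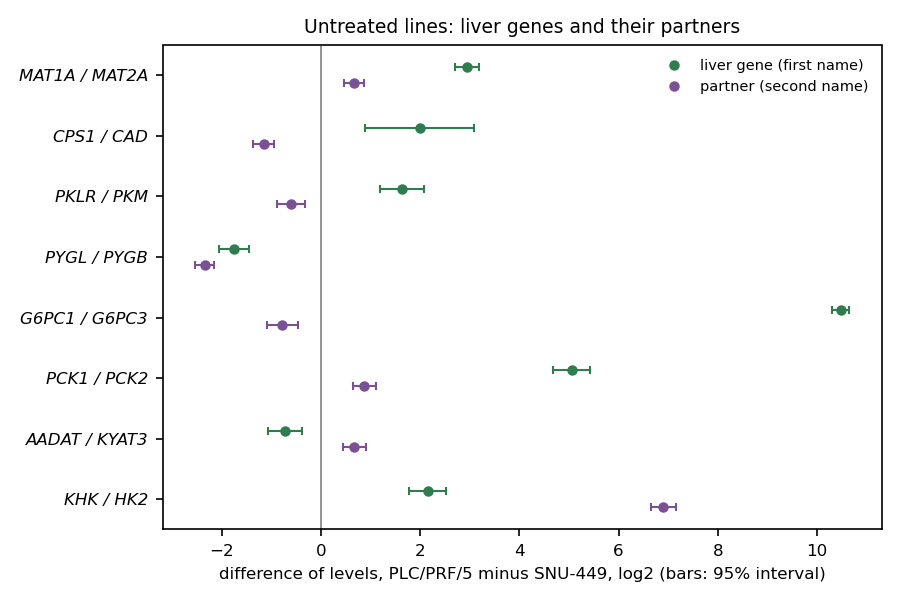
Difference of levels between the untreated lines (PLC/PRF/5 minus SNU-449, log2, with 95% intervals) for 8 of the liver genes (green) and their partners (purple). G6PC1 and PCK1 lie far to the right of G6PC3 and PCK2, both members of the PYGL and PYGB pair are lower in PLC/PRF/5, and KHK and AADAT have partners with a more positive difference than their own.

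Galunisertib alone asked how far receptor signalling without added TGFβ held these genes. The paper states that galunisertib also inhibits the type I receptors of activin and nodal. Their part and that of TGFβ cannot be told apart here. In PLC/PRF/5 it lowered 4 of the 22 genes tested, G6PC1, PCK1, ACMSD and ABAT, and raised none. Over all genes 1.73% were lower and 3.60% higher, and with the fold limit of 2 the counts were 0 of the 22 and 0.344% of all genes. Without regard to direction, 10 of the 22 had an unadjusted p under 0.05, beside 3891 of 16842 among all genes. G6PC1 fell from 6.31, 6.33 and 6.40 to 5.49, 5.45 and 5.44 (-0.89 ± 0.11, adjusted p = 0.00238). PCK1 fell from 1.04, 0.84 and 0.89 to 0.07, -0.08 and 0.12 (-0.88 ± 0.17, adjusted p = 0.0184). Both gluconeogenic genes were thus lower on every treated array than on any control array.

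ABAT fell from 1.81, 1.91 and 2.07 to 1.38, 1.25 and 1.45 (-0.57 ± 0.09, adjusted p = 0.00801). ACMSD, already dim, fell by 0.63 ± 0.15 (adjusted p = 0.0365) and was above background on 1 of 3 treated arrays. With the replicate number as a block it did not pass the test (adjusted p = 0.0595). The groups overlapped for neither gene. All 4 calls were lost when arrays were scaled to their median or left unscaled, where the differences of G6PC1 were -0.79 and -0.83. Without control replicate 1, the dimmest array, or without galunisertib replicate 1, 2 calls were left. PCK2 did not pass the test (-0.09, 95% interval -0.31 to 0.13, adjusted p = 0.646).

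The methionine genes did not pass the test with galunisertib alone, MAT1A at -0.42 (adjusted p = 0.0971) and CTH at 0.18 (adjusted p = 0.301). The other genes called in some comparison of this line did not pass it here, with differences of -0.65 for CPS1, -0.32 for GLUD1, -0.23 for ASS1, -0.15 for PKLR and -0.13 for HPD. For HGD, ASL, FAH and PYGL they were 0.11, 0.12, 0.21 and 0.27. Of the partners 3 of 11 were higher and 0 lower, among them ARG2, the mitochondrial arginase (0.78 ± 0.13, adjusted p = 0.00951), and PYGB, the phosphorylase of brain (0.54 ± 0.10). Of 70 other pathway genes 2 were higher, KYNU and GOT1, and 2 were lower, HOGA1 and PRODH2. The galunisertib and TGFβ comparisons share the control arrays. Among the hepatocyte markers 1 was higher and 3 were lower of 13, and the part of this in the changes above was not tested.

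**Figure D3:**
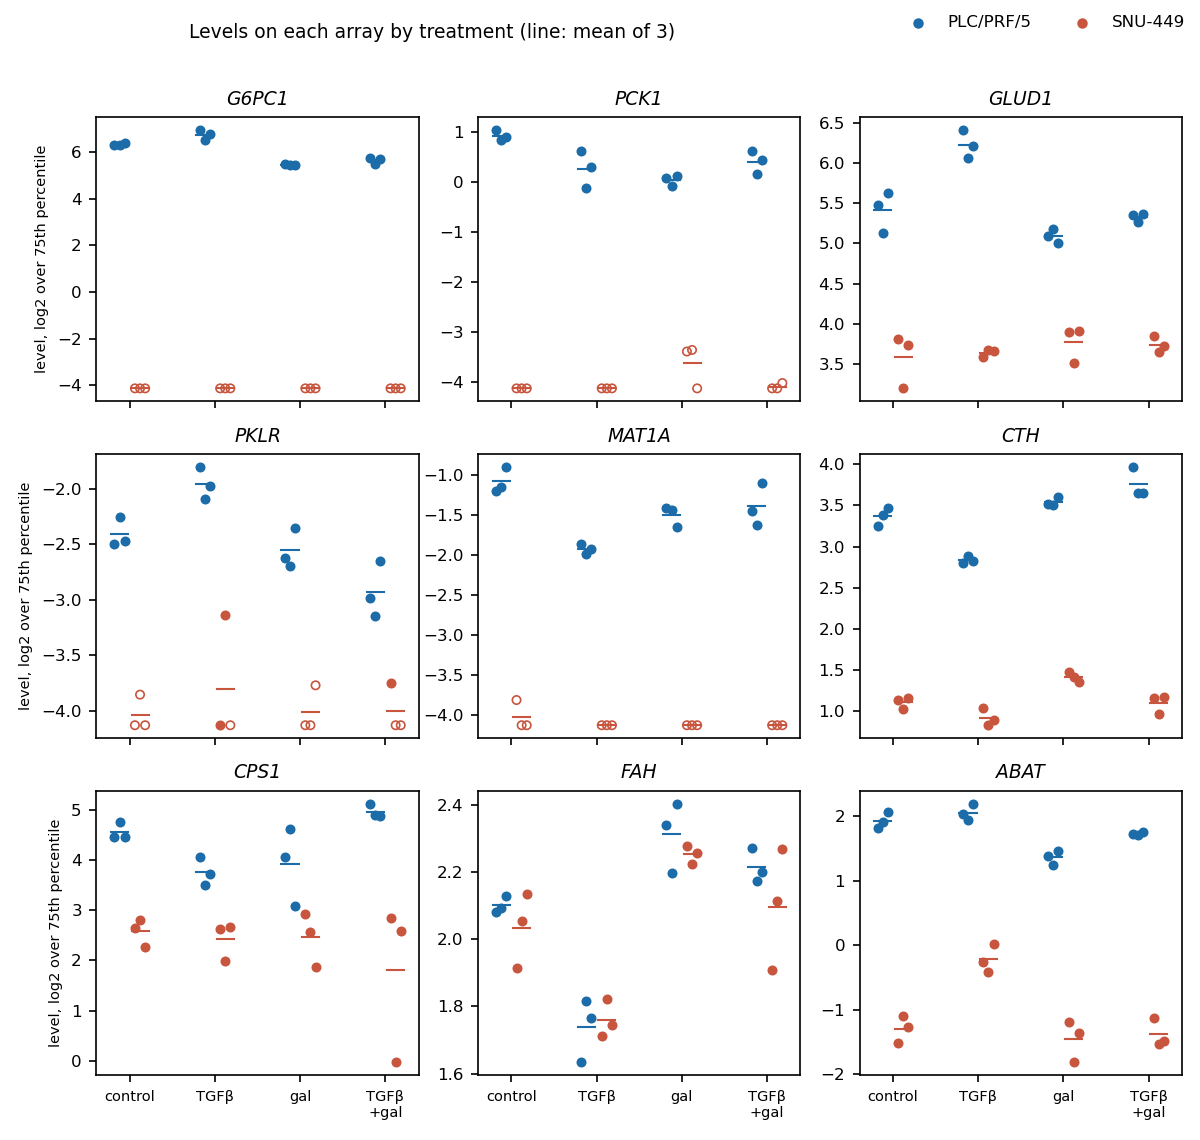
Levels (log2 of signal over the 75th percentile) of 9 genes on each array of PLC/PRF/5 (blue) and SNU-449 (red) by treatment, with the mean of 3 as a line and open points for arrays not well above background. Axes differ between panels. In PLC/PRF/5 G6PC1 and GLUD1 are highest with TGFβ, while MAT1A, CTH and FAH are lowest, and ABAT of SNU-449 stands higher with TGFβ alone than in its 3 other groups.

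TGFβ alone changed 6 of the 22 genes in PLC/PRF/5, 2 up and 4 down, where 6.20% of all genes rose and 7.12% fell. None of the 22 and 1.10% of all genes passed the limits of a fold above 2 with P under 0.001. GLUD1 rose from 5.47, 5.13 and 5.62 to 6.41, 6.05 and 6.21 (0.81 ± 0.13, 1.76-fold, adjusted p = 0.00235). G6PC1 rose to 6.95, 6.53 and 6.79 (0.42 ± 0.11, adjusted p = 0.027). For both genes each TGFβ array was above each control array.

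MAT1A fell from -1.20, -1.15 and -0.90 to -1.87, -1.98 and -1.93 (-0.85 ± 0.13, adjusted p = 0.00251). CTH fell to 2.80, 2.89 and 2.82 (-0.53 ± 0.10, adjusted p = 0.0056) and FAH to 1.63, 1.82 and 1.77 (-0.36 ± 0.08, adjusted p = 0.012). PCK1 fell to 0.62, -0.12 and 0.29 (-0.66 ± 0.17, adjusted p = 0.0305). These 4 were picked by their call, and none overlapped with the controls. The gluconeogenic pair thus moved in opposite directions, G6PC1 up and PCK1 down, whereas with galunisertib alone both were lower.

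CPS1 reached 4.07, 3.51 and 3.72, below all its controls, but did not pass the test (-0.80 ± 0.31, adjusted p = 0.119). PKLR (0.45, adjusted p = 0.0608), ABAT (0.12, adjusted p = 0.439), HGD (-0.20, adjusted p = 0.0951) and PYGL (-0.23, adjusted p = 0.109) did not pass either. Nor did ACMSD (-0.40), ASL (-0.28), PCK2 (-0.19), HPD (-0.10) and ASS1 (0.12). The calls of G6PC1 and PCK1 were lost without control replicate 1 or 2 or TGFβ replicate 3. With arrays scaled to the median 1 gene was up and 1 down, and with no scaling 1 was up and 0 down.

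The partners ARG2 (-0.86 ± 0.13, adjusted p = 0.00204), HK2 (-0.95 ± 0.10), PYGB and GYS1 fell with TGFβ and 0 of 11 rose. Other genes of the pathways gave 1 higher, AMDHD1 of histidine breakdown (0.37), and 8 lower of 70, of which the largest falls were by 0.83 for KYNU, which degrades kynurenine, by 0.61 for the aspartate aminotransferase GOT1 and by 0.58 for PRODH2. Of the hepatocyte markers 3 of 13 fell and 0 rose, and their part in these changes was not tested.

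Adding galunisertib to TGFβ gave the most calls, as it did over all genes. In PLC/PRF/5 it raised 7 and lowered 7 of the 22 genes, where 25.5% of all genes rose and 13.4% fell, and 1 of the 22 and 3.10% of all genes passed the fold limit of 2. Of the methionine genes CTH rose from 2.80, 2.89 and 2.82 to 3.97, 3.65 and 3.65 (0.92 ± 0.10, 1.89-fold, adjusted p = 7.03e-05). MAT1A rose from -1.87, -1.98 and -1.93 to -1.45, -1.63 and -1.10 (0.54 ± 0.13, adjusted p = 0.00953). Both genes had been lower with TGFβ alone, and neither overlapped between these groups. The TGFβ arrays enter both comparisons with opposite sign. A deviation of those arrays alone would thus give opposite changes, here and below, in both lines.

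Of the urea cycle CPS1 rose from 4.07, 3.51 and 3.72 to 5.12, 4.90 and 4.89 (1.20 ± 0.31, 2.30-fold, adjusted p = 0.0105). ASL rose slightly (0.33 ± 0.11, adjusted p = 0.0306) and ASS1 fell (-0.36 ± 0.08, adjusted p = 0.00637). Of the tyrosine genes FAH (0.48 ± 0.08, adjusted p = 0.000883) and HGD (0.29 ± 0.07, adjusted p = 0.00928) rose, while HPD fell to background on all 3 arrays, at least 1.36-fold (adjusted p = 0.0394). PYGL rose from 2.44, 2.47 and 2.55 to 3.17, 3.02 and 3.12 (0.62 ± 0.08, adjusted p = 0.000326). Every array with both agents lay above every TGFβ array for CPS1, FAH, HGD and PYGL.

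G6PC1 fell from 6.95, 6.53 and 6.79 to 5.75, 5.52 and 5.71 (-1.10 ± 0.11, 2.14-fold, adjusted p = 4.03e-05) and was the gene of the set that passed the fold limit. GLUD1 fell from 6.41, 6.05 and 6.21 to 5.35, 5.27 and 5.37 (-0.89 ± 0.13, adjusted p = 0.000421). PKLR fell from -1.80, -2.09 and -1.97 to -2.99, -3.15 and -2.65 (-0.97 ± 0.14, adjusted p = 0.000476). These 3 had their highest group means in PLC/PRF/5 with TGFβ alone. ABAT (-0.33 ± 0.09, adjusted p = 0.0169) and ACMSD (-0.42 ± 0.15, adjusted p = 0.0453) also fell, whereas PCK1 (0.14, 95% interval -0.24 to 0.52, adjusted p = 0.567) and PCK2 (-0.26, adjusted p = 0.064) did not pass the test.

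The balance of these 14 calls depended on the scaling of the arrays. It was 6 up and 3 down with arrays scaled to their median, 2 and 3 with no scaling, and 4 and 8 with the percentile taken over probes above background everywhere. The dim genes HPD and ACMSD lost their call when any of the 3 arrays with both agents was left out, and with the replicate number as a block (adjusted p = 0.0619 and 0.0645). Among the partners 5 of 11 rose and 0 fell, with ARG2 at 1.84 ± 0.13 (adjusted p = 5.52e-06) and HK2 at 1.41 ± 0.10. Other pathway genes gave 26 higher and 10 lower of 70, with KYNU (1.65), GCLC, which makes the precursor of glutathione from cysteine (1.14), and GOT1 (0.93) highest, and FTCD, a histidine enzyme (-1.01), HOGA1 (-0.89) and AMT, of glycine cleavage (-0.79), lowest. Of the hepatocyte markers 3 rose and 2 fell of 13, and their part was not tested.

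**Figure D4:**
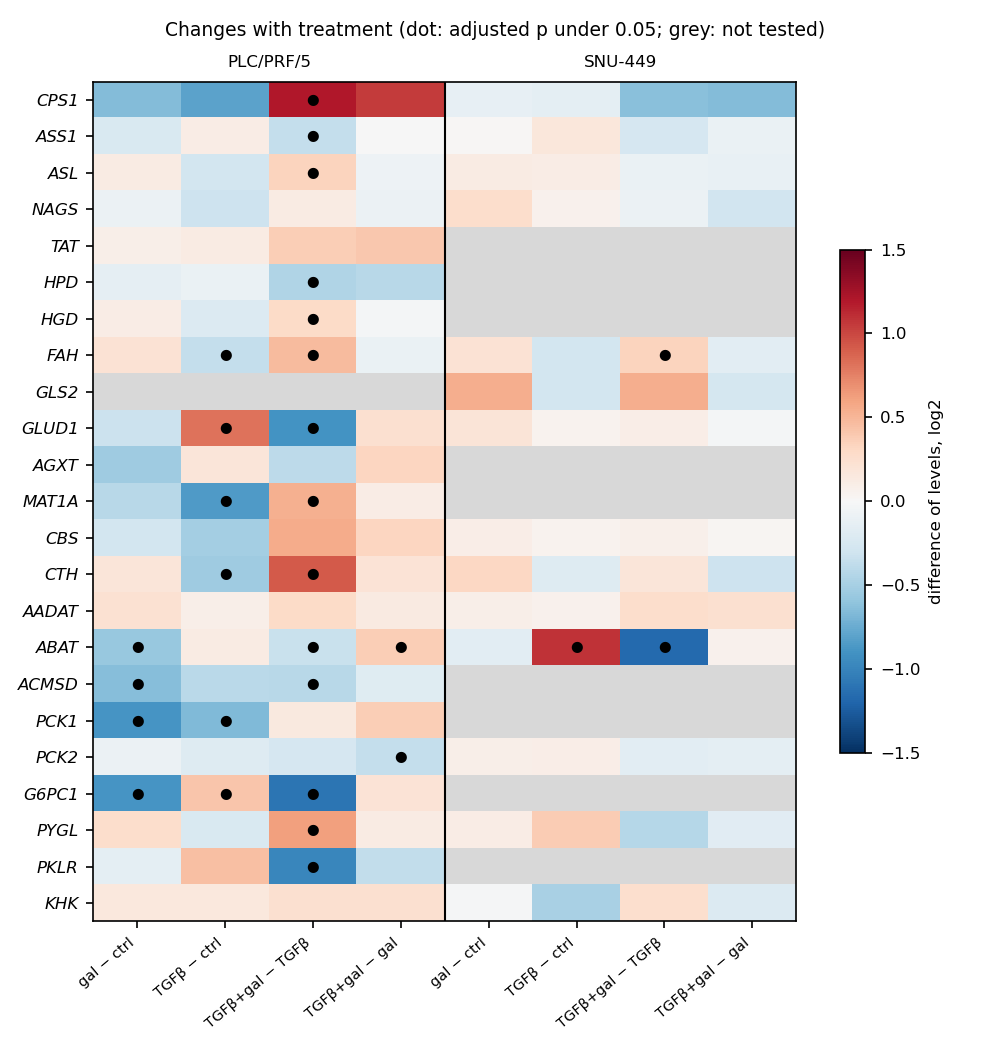
Differences of levels (log2, colour scale) of the 23 retained genes in the 4 treatment comparisons of each line, with a dot where the adjusted p was under 0.05 and grey where the gene was not above background on all 3 arrays of any group of that line. Dots are most frequent for galunisertib added to TGFβ in PLC/PRF/5 (14 of 22), and in SNU-449 they are found for ABAT and FAH.

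With galunisertib present, TGFβ left few calls. Compared with galunisertib alone, ABAT was higher (1.72, 1.70 and 1.75 against 1.38, 1.25 and 1.45, 0.37 ± 0.09, adjusted p = 0.0415) and PCK2 lower (1.66, 1.69 and 1.88 against 2.30, 1.99 and 2.03, -0.36 ± 0.10, adjusted p = 0.0497). Neither gene overlapped between the groups. Thus 1 gene was higher and 1 lower of 22, beside 3.47% and 4.85% of all genes, and 0 of 22 and 0.285% of all genes passed the fold limit. Both calls were lost when any of the 3 arrays with both agents was left out, and the t-test of the study's methods called none. A second, dimmer PCK2 probe ran the other way, with mean levels of -0.99 with both agents and -3.39 with galunisertib, so that the mean of both PCK2 probes differed by 1.02 (adjusted p = 0.0897). GLUD1 (0.24, 95% interval -0.04 to 0.52), MAT1A (0.11, -0.19 to 0.41) and G6PC1 (0.20, -0.03 to 0.44) did not pass the test, and neither did CPS1 (1.05 ± 0.31, adjusted p = 0.0594), whose galunisertib arrays were scattered at 4.06, 4.62 and 3.09. The remaining differences were -0.42 for HPD, -0.37 for PKLR, -0.18 for ACMSD, -0.10 for FAH, -0.07 for ASL, -0.02 for HGD and -0.01 for ASS1. They were 0.12 for PYGL, 0.21 for CTH and 0.37 for PCK1, none past the test. The partners gave 4 lower, PCK2 included, and 0 higher of 11, among them PYGB (-0.43) and GYS1 (-0.32), and the other pathway genes 4 higher and 3 lower of 70. Of the hepatocyte markers 1 was higher and 0 lower of 13.

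In SNU-449 only 14 genes of the set were tested, since G6PC1, PCK1, MAT1A, HGD, HPD, TAT, ACMSD, PKLR and AGXT were not above background on all 3 arrays of any group. Galunisertib alone changed 0 of the 14 (limma), beside 5.24% of all genes higher, 2.06% lower and 1.13% past the fold limit. ABAT differed by -0.15 (adjusted p = 0.649) and FAH by 0.22 (adjusted p = 0.214). At an unadjusted p under 0.05 there were 2, beside 4034 of 16197 among all genes. They were CTH, with levels of 1.48, 1.42 and 1.36 against 1.14, 1.03 and 1.17 (0.31 ± 0.09, adjusted p = 0.0724), and GLS2 near the floor (0.54 ± 0.21, adjusted p = 0.142). The t-test of the methods also called 0. Without galunisertib replicate 2, 1 gene was called. Of 67 other pathway genes 8 were higher, PRODH (1.31), KYNU (0.89) and PCCA, a subunit of propionyl-CoA carboxylase (0.64), most of all, and BCAT2 of branched-chain amino acid transamination was lower (-0.75). Of the partners 3 were higher and 0 lower of 10, PYGB by 0.63, ARG2 by 0.60 and GYS1 by 0.46. Of the 8 hepatocyte markers tested 4 were higher and 0 lower.

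TGFβ alone raised ABAT in SNU-449, from -1.52, -1.11 and -1.27 to -0.26, -0.41 and 0.02. The groups did not overlap (1.08 ± 0.19, 2.12-fold, adjusted p = 0.00473). This was the 1 call among 14, past the fold limit as well, beside 5.68% of all genes higher, 4.75% lower and 2.35% past that limit. Galunisertib added to TGFβ returned ABAT to -1.14, -1.53 and -1.49 (-1.17 ± 0.19, 2.25-fold, adjusted p = 0.00195). FAH rose with the addition from 1.71, 1.82 and 1.75 to 1.91, 2.11 and 2.27 (0.34 ± 0.10, adjusted p = 0.0461), after a difference of -0.27 with TGFβ that did not pass the test (adjusted p = 0.127). The 2 calls, 1 up and 1 down, stood beside 9.82% and 7.34% of all genes, and of the 14 genes ABAT passed the fold limit, beside 3.83% of all genes. The FAH call was lost when any TGFβ array, or replicate 2 or 3 of the combination, was left out, and under median scaling, where FAH differed by 0.18.

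GLUD1, which rose with TGFβ in PLC/PRF/5, had levels of 3.59, 3.67 and 3.66 with TGFβ in SNU-449 and of 3.82, 3.20 and 3.74 in its controls (0.06, 95% interval -0.31 to 0.42). The partners PYGB and ARG2 fell with TGFβ in SNU-449 (-0.54 and -0.73) and GYS1 rose (0.33), and with galunisertib added PYGB (0.68) and ARG2 (0.86) rose. Of 67 other pathway genes 0 rose and 6 fell with TGFβ, with SLC2A2 (-1.32), PRODH (-1.08) and CSAD, a taurine enzyme (-0.80), furthest, and 13 rose and 1 fell on addition of galunisertib, with SLC2A2 at 1.77 ± 0.18. Mesenchymal markers moved with these comparisons, 4 of 8 higher with TGFβ and 4 of 8 lower on addition of galunisertib. Of the 8 hepatocyte markers 1 was higher and 2 lower with TGFβ, and 3 were higher and 1 lower on the addition, and their part was not tested.

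With galunisertib present TGFβ changed 0 of the 14 genes in SNU-449 (limma; 1 at an unadjusted p under 0.05, as were 2738 of 16197 among all genes, and 0 by the t-test of the methods), beside 0.920% of all genes higher, 0.963% lower and 0.698% past the fold limit. ABAT differed by 0.07 (95% interval -0.35 to 0.49) and FAH by -0.16. CPS1 was dominated by the combination replicate 2, at -0.03 beside 2.85 and 2.59, and no CPS1 comparison in SNU-449 passed the test. Without galunisertib replicate 2, 1 gene was called. Of the partners 0 were higher and PYGB lower (-0.50) of 10. Of the other pathway genes BCAT2 was higher (0.76) and PCCB lower (-0.46).

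Whether the lines differed in response was tested as a difference of differences, SNU-449 minus PLC/PRF/5. For galunisertib 3 of 23 genes were called, PCK1 (1.39 ± 0.25, adjusted p = 0.0021), G6PC1 (0.89 ± 0.12, adjusted p = 0.000118) and ACMSD (0.63 ± 0.16, adjusted p = 0.0235), all in the positive direction, beside 3.41% of all genes in that direction and 2.41% in the other. PCK1 passed the fold limit, beside 1.53% of all genes. None of the 3 was above background in SNU-449, so the test says nothing of a response there. For G6PC1 and ACMSD it sets the fall in PLC/PRF/5 against the floor. For PCK1 the fall in PLC/PRF/5 was by 0.88, and the rest of the 1.39 came from SNU-449 signals below background, at -4.13 on every control array and at -3.40, -3.36 and -4.13 with galunisertib, without which it would not have passed the fold limit. For TGFβ 2 were positive, ABAT (0.96 ± 0.21, adjusted p = 0.00658) and MAT1A (0.74 ± 0.16, adjusted p = 0.00564), and 2 negative, GLUD1 (-0.76 ± 0.21, adjusted p = 0.0309) and G6PC1 (-0.42 ± 0.12, adjusted p = 0.0319), beside 4.25% and 4.35% of all genes, with 0 of 23 and 2.29% of all genes past the fold limit. ABAT and GLUD1 were measured in both lines, ABAT rising in SNU-449 and GLUD1 in PLC/PRF/5, whereas MAT1A and G6PC1 were again not above background in SNU-449. The calls of ABAT and GLUD1 were both lost under median scaling and with no scaling. Of the 13 hepatocyte markers 8 differed between the lines in the positive direction for galunisertib and 0 in the other, with 3 and 1 for TGFβ, and their part in these results was not tested. Within SNU-449 only 8 of the 13 passed the background filter. APOB, HNF4A and TF were not above background in its control and galunisertib groups. For such markers these counts say nothing of a response in SNU-449.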

How the data were processed

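Total RNA of 24 cultures was hybridised to 1-colour Agilent arrays. The deposited scanner files hold processed signal intensity from Agilent Feature Extraction 10.7.3.1, background-corrected by that software, with no scaling across arrays. A further deposited table holds log2 values that the authors normalized and centred on the median of each probe. It matched differences between the scanner arrays (r at least 0.9997, 19258 probes) and served as an alternative. Here the log2 intensity over the 75th percentile of each array (144.9 to 261.6) was used, floored at -4.13, leaving out control and outlier-marked spots (111 to 216 per array). Each gene was represented by its probe with the highest mean, named through RefSeq accessions. Genes above background on all 3 arrays of any group of the fit were tested with limma 3.58.1 (R 4.3.3) with Benjamini-Hochberg adjustment over all genes, 18054 over both lines, 16842 in PLC/PRF/5 and 16197 in SNU-449. A gene was called at an adjusted p under 0.05, and the second limits were a fold above 2 with an unadjusted P under 0.001, which the study set for its list of genes differing between the lines. The script was tested on simulated data.

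Samples were grouped by line and agent from the labels. Replicate numbers match the 3 slides, scanned on 1 day. In the TGFβ against control comparisons same-numbered samples deviated together (correlations of deviations 0.17 to 0.30 in PLC/PRF/5 and 0.13 to 0.22 in SNU-449). The main tests were nevertheless unpaired, and the pairing entered only through the replicate block, an alternative. Alternatives covered background correction, scaling, filter, floor, probe choice, the methods' t-test, the replicate block and each array left out. As the files used hold no mean signal column, normexp was run on the median signal (offset 50) in place of the planned column. All 32 genes could be named. Of those retained every one has a value between the lines, the genes called in a comparison of a line have a value in all 4 of that line, and partners and other pathway genes are named for the largest changes, up to 3 in a direction. The genes and lists were chosen with earlier results of these data known. Promoters came from RefSeq (GRCh38.p14) and motifs were searched on both strands. Python 3.11.15, pandas 2.3.3, numpy 2.4.6 and matplotlib 3.10.9 were used.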

Additional observations from a re-analysis of the deposited data

Results flagged for a closer look

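In 7 cases the difference of differences between the lines was called by limma (log2, PLC/PRF/5 subtracted from SNU-449). Only ABAT and GLUD1 were measured in both lines, so the other calls do not show that the responses differed. For galunisertib they were 1.39 for PCK1, 0.89 for G6PC1 and 0.63 for ACMSD, none of which was above background in SNU-449. For TGFβ they were 0.96 for ABAT and -0.76 for GLUD1, both measured in each line, and 0.74 for MAT1A and -0.42 for G6PC1, which were not above background in SNU-449. Groups of 3 arrays were not tested for outlying samples.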

How the results depend on the processing

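Of 1064 recomputed values over 55 called results of single genes, 863 kept their direction and call, 199 lost the call (74 of them with 1 array left out) and 2 changed sign, and 24 results never lost their call. PCK2, for both agents against galunisertib in PLC/PRF/5, differed by 1.02 with the mean of all its probes, and MAT1A, for the TGFβ effect between lines, by -0.32 with the authors' normalized values. Counts of called genes follow, and the causes of their changes were not tested except where fewer genes or arrays entered. Between untreated lines 19 became 11 among genes above background on all arrays, and 18 to 19 without 1 array. For galunisertib in PLC/PRF/5, 4 became 2 with normexp, with no filter and by the t-test of the methods, 0 with median scaling, no scaling or the fold limit, and 2 to 5 without 1 array. For TGFβ in PLC/PRF/5, 6 became 2 with median scaling, 1 with no scaling, 0 with the fold limit, and 4 to 5 without 1 array. For galunisertib added to TGFβ in PLC/PRF/5, 14 became 9 with median scaling, 5 with no scaling, 1 with the fold limit, and 11 to 13 without 1 array. For both agents against galunisertib in PLC/PRF/5, 2 became 1 with median, quantile, no or above-background percentile scaling, the floor at 50%, the mean of probes or the replicate block, 0 with no filter, the authors' values, the t-test or the fold limit, and 0 to 1 without 1 array. In SNU-449, galunisertib gave 0, and 1 with normexp, no filter or the floor at 200%, and 0 to 1 without 1 array. TGFβ gave 1, 2 with normexp, and 1 to 1 without 1 array. Galunisertib added to TGFβ gave 2, 4 with normexp, 1 with median scaling, no scaling, no filter, the t-test or the fold limit, and 1 to 3 without 1 array. Both agents against galunisertib gave 0, 1 with normexp or no filter, and 0 to 1 without 1 array. Between lines, galunisertib gave 3, 0 with median scaling or among genes above background on all arrays, 1 with no scaling, the authors' values or the fold limit, and 2 to 3 without 1 array. TGFβ gave 4, 2 with normexp or among genes above background on all arrays, 0 with median scaling, no scaling or the fold limit, 1 with the authors' values, 7 with the floor at 200%, and 2 to 4 without 1 array, with 2 left without any of the 3 SNU-449 TGFβ arrays, SNU-449 control replicate 1 or 3, or PLC/PRF/5 TGFβ replicate 3.

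With the replicate block the counts were otherwise 19, 3, 6 and 12 (untreated lines, then galunisertib, TGFβ and galunisertib added to TGFβ in PLC/PRF/5), 0, 1, 2 and 0 for the comparisons of SNU-449, and 3 and 4 between lines. The calls lost with the block were ACMSD for galunisertib (adjusted p = 0.0595), ACMSD (0.0645) and HPD (0.0619) for galunisertib added to TGFβ, and PCK2 for both agents against galunisertib (0.0749), all in PLC/PRF/5. Outside the TGFβ against control comparisons, correlations of deviations of same-numbered samples, which share a slide, ran from -0.07 to 0.33. Some were thus as high as in the TGFβ against control comparisons. The labels do not say whether same-numbered samples share a culture experiment. Other scalings shifted the median difference of all genes to between -0.28 and 0.23. Genes near the floor have signals close to background, and 3 arrays per group limit every test. The t-test was not run for the differences between lines.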
